A study of Salmo salar with 8 samples.

Results

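A small number of transcripts in fertilised Atlantic salmon (Salmo salar) eggs crossed the detection limit of the array in every egg of one treatment group and in no egg of the other. The groups were 4 eggs exposed to road salt at 5000 mg/L, here called salt eggs 1, 3, 5 and 6, and 4 eggs kept in lake water, here called control eggs 2, 3, 4 and 5. Each egg was treated from fertilisation to 24 h afterwards, and its total RNA was extracted by itself and measured on its own single-colour Agilent array, which carries 55468 probes. Of these probes, 59 were well above background on all 4 salt arrays and on no control array, and are called salt-only. Another 37 were well above background on all 4 control arrays and on no salt array, and are called control-only. "Well above background" is a yes-or-no mark that the scanner software sets for each spot, and a probe carried it if any of its spots did.

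The submitters label the tissue as embryo, and their titles name the eyed stage, which is far later than 24 h, so that the age of the embryos in these eggs is not settled. Whether eggs shared parents or an exposure vessel is not stated, and an egg's RNA mixes all its cells. A transcript present in fewer cells and a transcript with less RNA per cell cannot be told apart in such samples. The probes carry only array identifiers and target names. None of the 55418 target names, and none of the numbers inside them, matched any of 65341 genes in the RefSeq salmon table (assembly Ssal_v3.1), so that no gene, no tissue marker and no gene list could be read from the members.

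Road salt is mainly sodium chloride. Salmon eggs are laid in fresh water and harden by taking up water after fertilisation, and the envelope and membranes around the yolk then limit the exchange of water and ions with the surroundings. An early fish embryo runs on transcripts that the mother stored in the egg until its own genome is switched on, so a transcript can appear by new transcription and disappear by decay of the stored supply. Which of these the members reflect was not tested.

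Because the detection marks chose the members, the contrast between their salt and control values is a description, and nothing is read from any test of it. The 59 salt-only probes were 0.106% of all probes and the 37 control-only probes 0.0667%. Most probes were uniform across the eggs, with 27533 (49.6%) detected on all 8 arrays and 15951 (28.8%) on none. Exactly 4 of the 8 arrays detected 1319 probes (2.38%). Salt-only and control-only probes together made up 96 of these, or 7.28%. The 2 slides, each of which held 2 eggs of each group, divided the same kind of probe as sharply: 82 probes were detected on all 4 arrays of slide 2 and none of slide 1, and 16 on all 4 of slide 1 and none of slide 2. These 98 probes were 7.43% of the 1319.

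**Figure D1:**
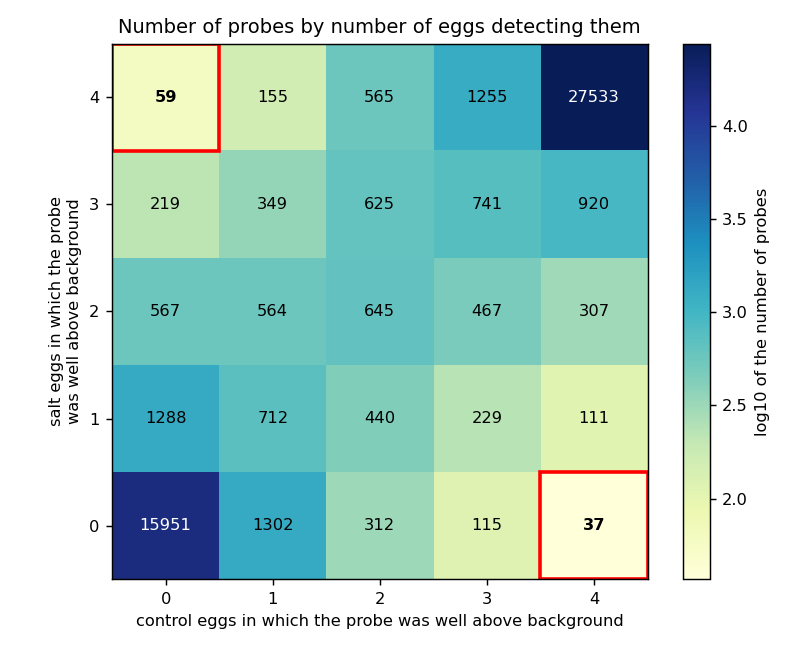
Number of probes by the number of salt eggs (vertical axis) and control eggs (horizontal axis) in which they were well above background. Colour gives the log10 of the number, and the red frames mark the 59 salt-only and 37 control-only probes, which are the least filled corners of the grid.

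How many probes an array detected varied among eggs of the same treatment. Salt arrays detected 30788 (egg 3) to 36395 (egg 6) probes, and control arrays 30883 (egg 5) to 35168 (egg 3). The ranges of the groups overlapped almost fully, and the arrays with the fewest detected probes, salt egg 3 and control egg 5, were also the dimmest of their groups. The part that these array-wide differences play in membership was not tested.

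The word "only" holds for the mark and not for the weaker mark of the same software, which asks merely that a spot be positive and significant against its background. By the weaker mark, 29 of the 59 salt-only probes were present on all 4 control arrays, 17 on 3, 10 on 2 and 3 on 1. Of the 37 control-only probes, 30 were present on all 4 salt arrays, 6 on 3 and 1 on 1. No member of either set was without the weaker mark on every array of the other group. When the sets were chosen by the weaker mark instead, 45 salt-only and 27 control-only probes were found, and none of the 59 or of the 37 was among them.

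Levels are given as log2 of the processed signal relative to the 75th percentile of the array, so that 0 is the level that 75% of the probes on an array do not exceed. Values per egg are listed in the order salt 1, 3, 5, 6 and control 2, 3, 4, 5. A spot without the weaker mark holds a stand-in value set by the software, so such a level is not a measured one. Most members were dim. Among probes detected on at least 1 array, the median member stood at percentile 28.8 by level in the salt-only and 25.02 in the control-only set, and 3 salt-only probes (CUST_34799, CUST_20583 and CUST_24116) stood above percentile 50. In their 4 detecting eggs the salt-only probes had a mean level of -3.60 to -0.24 with a median of -2.74, and the control-only probes one of -3.65 to -1.84 with a median of -2.997. No member of either set averaged above 0. For comparison, the median level over all 29567 probes detected on all 4 salt arrays was -0.24, and over all 28908 probes detected on all 4 control arrays it was -0.17. In intensity units the salt-only probes had a median of 20.9 in salt eggs and 5.50 in control eggs, and the control-only probes a median of 6.90 in salt eggs and 15.2 in control eggs. The array's 75th percentile lay between 103 and 167 units on salt arrays and between 87.6 and 163 units on control arrays.

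Since a probe below the mark has no settled level, its fold is given as a nominal lower bound. The bound sets the mean level of the detecting eggs against a floored mean of the other eggs. Each array's floor is its lowest signal among probes well above background, or the probe's own signal if that is higher. The result is not a strict bound, because on every array some probes below the mark were brighter than that lowest signal. On the array of control egg 2 they reached 13.06 units, while the lowest detected signal was 2.10 units. Where the probe's own signal was the higher in all 4 other eggs, the bound is the observed difference itself, as for CUST_26332 and CUST_47780. The words "at least" are used below in this nominal sense, and for this background correction alone. For the 59 salt-only probes, all higher in salt eggs, the bounds ran from 1.24-fold to 18.5-fold (median 2.80). For the 37 control-only probes, all lower in salt eggs, they ran from 1.67-fold to 5.61-fold (median 2.43). With the normexp background correction, 2 salt-only probes, CUST_25552 and CUST_6502, turned to marginally lower in salt eggs (-0.0257 and -0.0179). The bound exceeded 4-fold for 11 salt-only and 3 control-only probes, and 8-fold for 6 salt-only and 0 control-only probes.

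**Figure D2:**
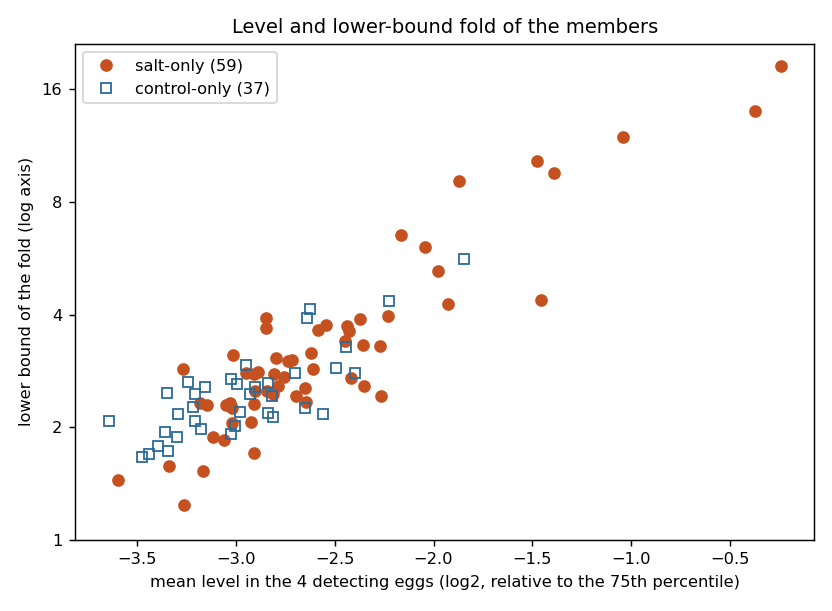
Nominal lower bound of the fold (vertical log axis) against the mean level in the 4 detecting eggs (horizontal axis, log2 relative to the 75th percentile of the array), 1 point per member. The bound exceeds 4-fold for 11 salt-only and 3 control-only probes, and the 6 probes with a bound over 8-fold are all salt-only.

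CUST_34799 (target name 5696663) had the largest bound among the salt-only probes. Its level was 0.79, -0.94, -0.998 and 0.19 in the 4 salt eggs, against -4.12, -5.87, -3.74 and -5.39 in the 4 controls. The lowest salt egg lay 2.75 above the highest control egg. Its mean was -0.24 ± 0.88 in salt eggs and -4.78 ± 1.01 in control eggs (SD, n = 4 each), which gives at least 18.5-fold. CUST_20583 (target name 5647773) came next and varied less among salt eggs, with 0.16, -0.69, -0.66 and -0.31 in the 4 salt eggs and -3.77, -4.28, -6.02 and -5.08 in the 4 controls. Its gap between the groups, 3.08, was the widest of all 96 members, and its bound was at least 14.01-fold.

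CUST_24116 (target name 5655147) was spread more widely among the salt eggs. It read -0.12, -2.34, -1.17 and -0.54 in the 4 salt eggs, against -5.63, -4.39, -4.39 and -5.35 in the 4 controls, and was at least 11.9-fold higher in salt eggs. CUST_2779 (target name 5430386) read -0.84, -1.70, -1.30 and -2.07 in the 4 salt eggs, against -5.14, -5.54, -6.25 and -5.66 in the 4 controls. Its gap of 3.07 was nearly as wide as that of CUST_20583, and its bound was at least 10.3-fold. In these 4 probes no control egg came near the salt eggs. The weaker mark was set on 3, 3, 2 and 2 of the 4 control arrays in turn, and the other control levels are stand-in values.

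CUST_50897 (target name OM_UG27_56286806) read -0.86, -1.92, -1.35 and -1.42 in the 4 salt eggs, against -3.90, -6.11, -5.87 and -5.31 in the 4 controls, at least 9.57-fold higher in salt eggs. Control egg 2 stood above the other controls, and the weaker mark was set on 1 control array. CUST_53862 (target name SS_UG_35677602) read -1.07, -1.72, -3.37 and -1.32 in the 4 salt eggs, against -5.67, -5.88, -6.15 and -5.56 in the 4 controls, at least 9.07-fold higher in salt eggs. Here the controls were close together, but the weaker mark was set on only 2 of the 4 control arrays, and the others hold stand-in values. Salt egg 5 was well below the other salt eggs. CUST_24292, CUST_24418, CUST_1281, CUST_26332, CUST_50941 and CUST_3498 completed the 12 largest bounds of the set, which ended at 3.96-fold. In CUST_24418, a probe with 2 spots, both spots were well above background on each of the 4 salt arrays and neither was on any control array.

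**Figure D3:**
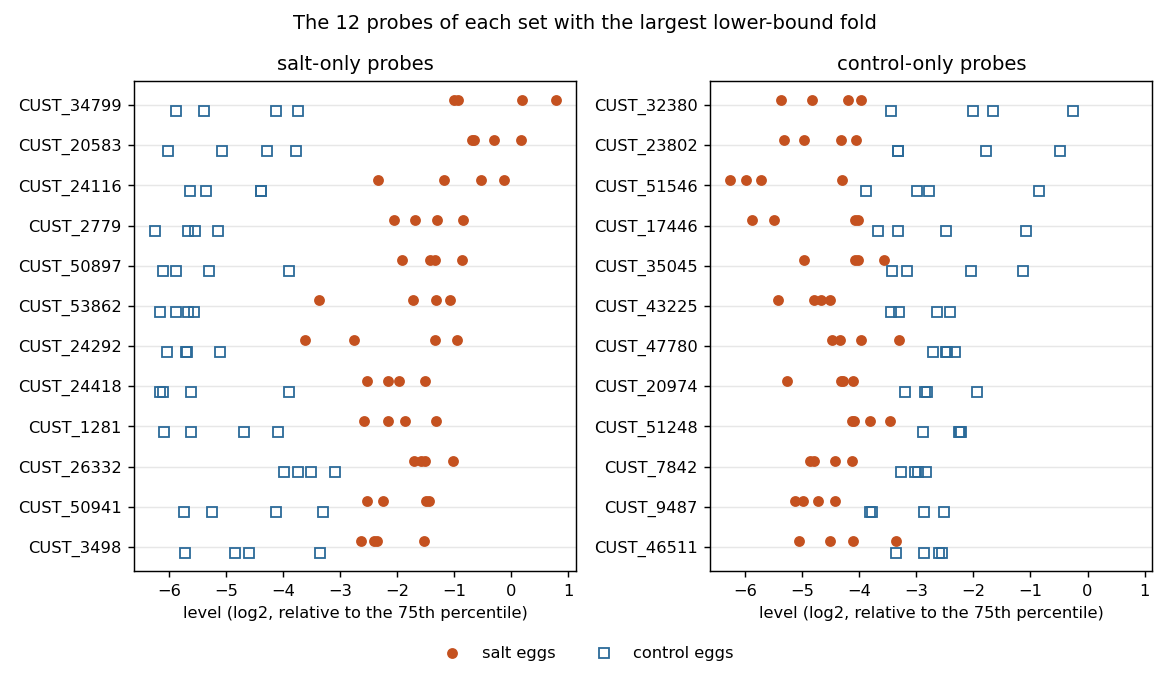
Level of the 12 salt-only (left) and 12 control-only (right) probes with the largest lower-bound fold, with a filled circle for each salt egg and an open square for each control egg (log2, relative to the 75th percentile of the array). The salt-only probes are separated by gaps of 0.72 to 3.08, while those of the control-only probes run from -0.0018 to 1.07 and their controls are widely spread in the first 5.

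The control-only probes had smaller bounds, and the first 5 rested on an uneven group of control eggs. CUST_32380 (target name 5685451) read -5.38, -4.83, -4.20 and -3.98 in the 4 salt eggs, against -0.26, -1.66, -3.45 and -2.0 in the 4 controls. Control egg 2 lay far above the others and control egg 4 only 0.53 above the highest salt egg. The mean was -4.60 ± 0.63 in salt eggs and -1.84 ± 1.31 in control eggs (SD, n = 4 each), at least 5.61-fold lower in salt eggs. With normexp its log2 difference was -0.66. CUST_23802 (target name 5652581) was again highest in control egg 2 and lowest among controls in egg 4, with -4.07, -5.32, -4.96 and -4.32 in the 4 salt eggs and -0.49, -3.32, -3.32 and -1.78 in the 4 controls, at least 4.34-fold lower in salt eggs.

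CUST_51546 (target name OM_UG27_56292432) read -5.98, -5.72, -6.26 and -4.31 in the 4 salt eggs, against -0.86, -2.99, -3.88 and -2.79 in the 4 controls, at least 4.13-fold lower in salt eggs. It was the control-only probe with the lowest salt signals by the weaker mark, being positive and significant on 1 salt array. CUST_17446 was at least 3.93-fold lower in salt eggs, and control egg 2 was again the highest at -1.09. CUST_35045, at least 3.28-fold lower, differed in that control egg 3 was the highest at -1.13. The next 7 probes by bound were more even, with an SD among control eggs of 0.15 to 0.66. The most even of them, CUST_47780, read -4.48, -3.30, -4.34 and -3.96 in the 4 salt eggs, against -2.33, -2.70, -2.48 and -2.47 in the 4 controls, and was at least 2.88-fold lower in salt eggs.

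The members named next had the 3 smallest bounds of each set, so their bounds are small by choice. The salt-only probes with the smallest bounds were CUST_11232 (at least 1.52-fold), CUST_8104 (1.45-fold) and CUST_6502 (1.24-fold). CUST_6502 read -3.40, -3.15, -3.38 and -3.12 in the 4 salt eggs, against -3.40, -3.74, -3.93 and -3.22 in the 4 controls, so the groups overlapped. The control-only probes with the smallest bounds were CUST_39540 (1.73-fold), CUST_49878 (1.70-fold) and CUST_29138 (1.67-fold), all lower in salt eggs. Over the sets, the levels of the groups did not overlap for 54 of the 59 salt-only and 29 of the 37 control-only probes. Over the 30942 probes that all 4 eggs of one group or the other detected, the salt eggs all lay higher for 5.13% and the control eggs all lay higher for 4.76%. The contrast is the one that chose the members, so nothing is read from these counts.

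Just outside the rule were 155 probes detected on all 4 salt arrays and 1 control array, and 111 detected on all 4 control arrays and 1 salt array. On the salt side the 3 with the largest differences were CUST_44209, CUST_39934 and CUST_45663, and their fitted differences of 4.60, 4.55 and 4.50 were as large as the 4.54 of CUST_34799. In each it was control egg 2 that kept the probe out, with levels of -2.32, -2.54 and -2.65, while the salt eggs averaged 0.59 ± 0.62, -0.40 ± 0.30 and -0.12 ± 0.40 (SD, n = 4 each). On the control side, CUST_33228, CUST_51217 and CUST_31155 had fitted differences of -2.68, -2.55 and -2.42 and were kept out by salt egg 6, at -3.42, -3.64 and -3.56. Salt egg 6 had the highest salt level in CUST_33228 alone. Below the mark, salt egg 3 read -3.15 in CUST_51217, and salt eggs 3 and 5 read -3.54 and -3.37 in CUST_31155.

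Eggs differed in how often they alone kept a probe out of a set. How often each egg alone differs in its mark over other probes was not counted, so nothing about the members is read from these numbers. Of the 155 near misses on the salt side, the single detecting control egg was egg 2 for 70, egg 3 for 58, egg 4 for 23 and egg 5 for 4. A further 219 probes were detected on 3 salt arrays and no control array, and salt egg 3 was the missing one for 183 of them. On the control side, salt egg 6 was the single detecting salt egg for 73 of the 111 near misses. A further 115 probes were detected on 3 control arrays and no salt array, and control egg 4 was missing for 51 and control egg 5 for 38. With 1 egg left out, the salt-only set therefore grew to 242 without salt egg 3, to 129 without control egg 2 and to 117 without control egg 3, against 59. The control-only set grew to 110 without salt egg 6, 58 without salt egg 5, 88 without control egg 4 and 75 without control egg 5, against 37. Leaving out an egg can only enlarge a set.

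The choice was also repeated on fewer eggs. For each of the 16 pairs of a salt and a control egg, the sets were chosen on the other 3 salt and 3 control eggs, and detection was then read in the pair left out. This step was added after the data were seen, the 16 pairs share eggs, and no p-value is given. The sets so chosen held 63 to 427 and 52 to 216 probes. Each includes all 59 or 37 members, whose marks in the left-out pair are fixed by the rule, so the shares describe the repeated choice and are no support for the members. Probes chosen as salt-only were detected in the left-out salt egg for 22.7% to 100% (median 78.6%) and in the left-out control egg for 5.47% to 54.3% (median 32.6%). The share was higher in the salt egg in 14 of the 16 pairs. Probes chosen as control-only were detected in the left-out salt egg for 7.37% to 66.0% (median 24.4%) and in the left-out control egg for 44.4% to 84.1% (median 59.9%), and the share was higher in the control egg in 14 of the 16 pairs.

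The eggs behaved unequally in this reading. Left-out salt eggs 6, 1, 5 and 3 detected on average 99.3%, 88.8%, 70.2% and 27.7% of the probes chosen as salt-only, while control eggs 3, 2, 4 and 5 detected 48.6%, 46.9%, 28.7% and 6.31%. Each average is over the pairs that its egg enters, so the averages do not cover the same probes. On the same probes, salt egg 3 detected 27.4% against 43.3% in control egg 3, and 22.7% against 33.0% in control egg 4. It detected more than control egg 2 (36.1% against 32.2%) and control egg 5 (24.6% against 5.47%). The 2 exceptions among the pairs both held salt egg 3. Of the probes chosen as control-only, salt eggs 6, 5, 1 and 3 detected 63.6%, 32.1%, 21.6% and 10.01%, and control eggs 3, 2, 5 and 4 detected 82.7%, 69.2%, 51.5% and 47.4%. Both exceptions there held salt egg 6, the egg with the most detected probes of all. Salt egg 3 and control egg 5, the eggs lowest for the other group's probes, were also those with the fewest detected probes on the array.

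**Figure D4:**
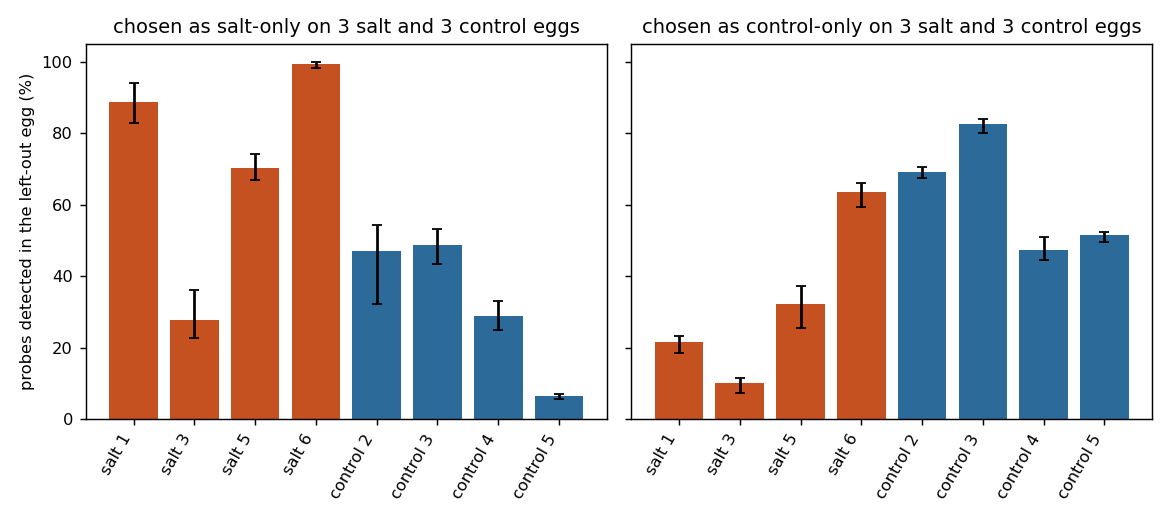
Percentage of probes detected in an egg that was left out of the choice, for sets chosen as salt-only (left) and control-only (right) on 3 salt and 3 control eggs. Bars are means over the 4 pairs that an egg enters and whiskers the lowest and highest of these, and salt egg 3 (27.7%) on the left and salt egg 6 (63.6%) on the right stand apart from the other salt eggs.

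Within single slides the sets were larger. On slide 1 alone (salt eggs 1 and 3, control eggs 2 and 3), 150 probes were detected in both salt eggs and neither control egg, and 1040 in both control eggs and neither salt egg. On slide 2 alone (salt eggs 5 and 6, control eggs 4 and 5) these numbers were 1376 and 126. Of the 150 salt-only probes of slide 1, 59 (39.3%) had the same pattern on slide 2 and 0 the opposite one. Of the 1376 salt-only probes of slide 2, 59 (4.29%) had the same pattern on slide 1 and 83 (6.03%) the opposite one. Of the control-only probes, 37 of 1040 (3.56%) from slide 1 and 37 of 126 (29.4%) from slide 2 kept the pattern on the other slide, while 83 (7.98%) and 0 had the opposite one. In the larger set of each slide the opposite pattern was thus the more frequent on the other slide. The 83 probes are the same in both counts, detected in control eggs 2 and 3 and salt eggs 5 and 6 alone. The counts are therefore not separate observations. The probes that kept the pattern are the members themselves, and most probes of the large sets had neither pattern there. By mean level on the other slide, the same group was higher for 63.5% of the 1040 and 61.0% of the 1376 probes. It was higher for 82% of the 150 and 81.0% of the 126. Each share includes the 59 or 37 members, none of which turned direction on either slide, so nothing is read from the shares. What sets the slides apart was not tested. For the 59 salt-only probes the median fitted difference was 1.63 on slide 1 and 2.18 on slide 2, and for the 37 control-only probes -1.26 and -1.33, with directions that the rule fixes.

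Slide is balanced over the treatments, but a member carries the same mark on both slides within each group, so that the rule is not independent of slide and the members' slide values are a description. In limma, with slide fitted beside group over 30942 probes, 21 probes (0.0679%) differed between slides at an adjusted p under 0.05, and none of them was a member. At an unadjusted p under 0.05, 9 of the 59 salt-only and 1 of the 37 control-only probes differed, beside 12.9% of all tested probes. All 10 were lower on slide 2, while 1954 of all 3994 probes that differed at that level were higher there. With quantile normalisation 8 salt-only and 2 control-only probes differed at that level, beside 12.6% of all tested probes. Of these members 1 control-only probe was higher on slide 2, beside 2059 of all 3892 probes that differed. With normexp 0 members differed, beside 9.71% of all tested probes. The median difference of slide 2 from slide 1 was -0.36 for the salt-only and -0.19 for the control-only probes, beside 0.06 over all tested probes. In a separate limma fit of salt against control, with group as its one term, 28 of the 59 salt-only probes were higher in salt eggs at an adjusted p under 0.05, beside 0.75% of all tested probes. Of the 37 control-only probes 11 were lower, beside 0.171%. These numbers ranged from 1 to 42 and from 0 to 15 with each egg left out, with 1 and 0 without salt egg 6, 7 and 2 without salt egg 1, and 6 and 0 without control egg 5. They were 0 and 0 with a block for the replicate number. The contrast of this second fit chose the members, and nothing is read from it.

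Within each set some eggs of the detecting group were more often the highest or the lowest than others. Salt egg 1 was the highest of the salt eggs for 32 of the 59 salt-only probes and salt egg 6 for 18, while salt egg 5 was the lowest for 32 and salt egg 3 for 18. Among 2835 probes of like level, those detected on all 4 salt arrays with a mean level between the quartiles of the members, salt egg 1 was the highest for 33.3% and salt egg 5 the lowest for 36.8%, against 54.2% each in the members. Control egg 2 was the highest of the control eggs for 21 of the 37 control-only probes and control egg 5 for 14, while control egg 4 was the lowest for 22 and control egg 3 for 15. Among 1461 probes of like level, control egg 2 was the highest for 37.0% and control egg 4 the lowest for 43.7%, against 56.8% and 59.5% in the members. In the control eggs, where salt-only probes were below the mark, control egg 2 had the highest signal for 42 of the 59. The same count over other probes was not made, so nothing is read from it. The weaker mark was set for 57, 55, 44 and 34 of the 59 in control eggs 2, 3, 4 and 5, and the rest hold stand-in values.

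**Figure D5:**
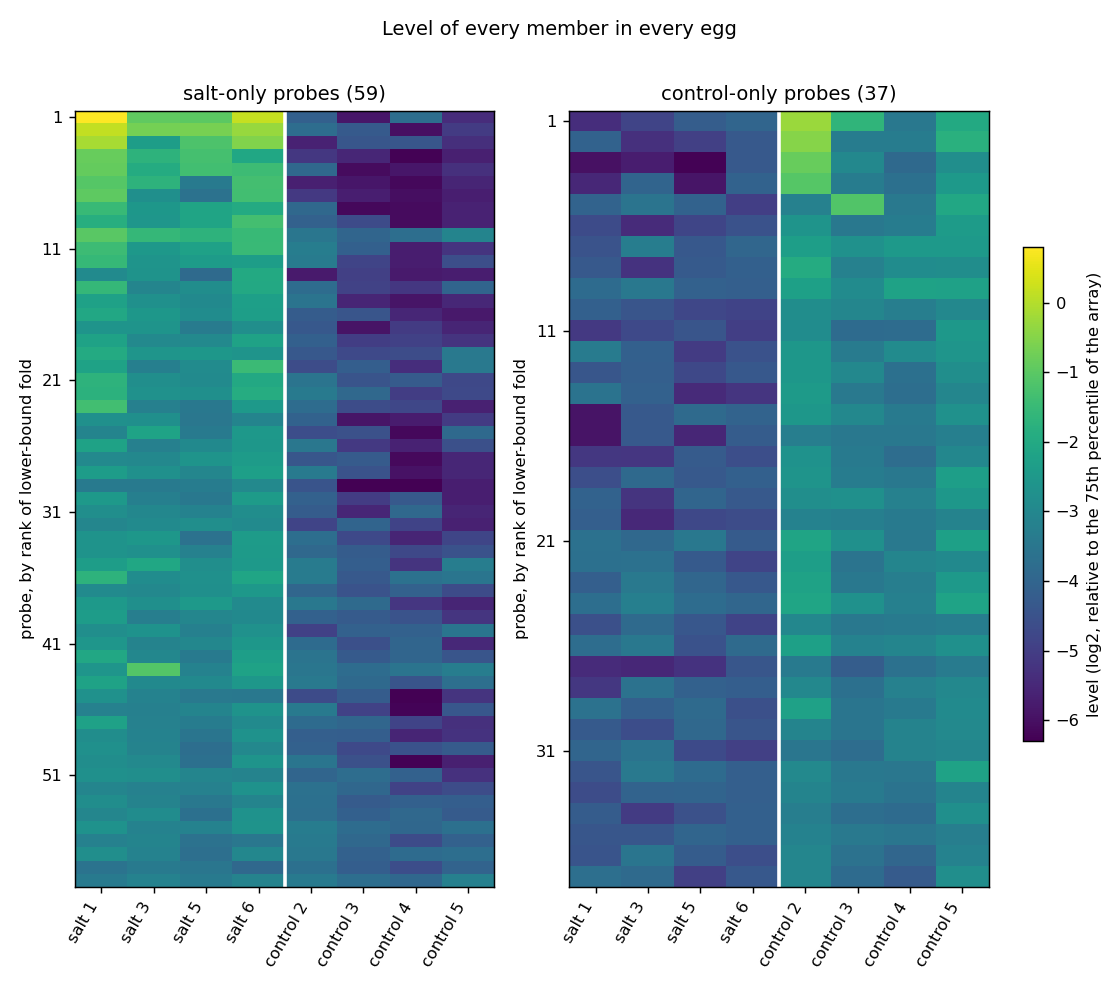
Level of each of the 59 salt-only (left) and 37 control-only (right) probes (rows, ordered by lower-bound fold) in each egg (columns, salt eggs left of the white line), in colour as log2 relative to the 75th percentile of the array. Brighter cells are at the salt eggs in the left panel and at the control eggs in the right one, and control egg 2 has the brightest cells of the right panel.

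By median, members also varied more among the eggs that detected them than probes of like level did. Those probes lie between the quartiles of the members' levels, while the members range more widely. The same eggs chose the members, so the comparison is a description. The SD among salt eggs had a median of 0.39 over the salt-only probes (0.10 to 1.24), beside 0.29 over 2837 probes of like level and 0.20 over all 29567 probes detected on all 4 salt arrays. The SD among control eggs had a median of 0.49 over the control-only probes (0.11 to 1.37), beside 0.34 over 1462 probes of like level and 0.36 over all 28908 probes detected on all 4 control arrays. The SD exceeded 1 for 2 of the 59 salt-only probes, CUST_24292 and CUST_53862, and for 5 of the 37 control-only probes, which were the first 5 of that set by bound. CUST_51613 was a salt-only probe carried upward by 1 egg, with -2.61, -1.11, -3.15 and -2.20 in the 4 salt eggs and -3.50, -3.80, -3.56 and -3.30 in the 4 controls (named after its values were seen).

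The names of the probes were the only annotation at hand. Numeric target names accounted for 34 of the 59 salt-only and 19 of the 37 control-only probes, beside 64.3% of all probes. OM_UG27 names accounted for 19 of the salt-only (32.2%) and 18 of the control-only probes (48.6%), beside 29.7% of all probes and 35.0% of the 1319 probes detected on exactly 4 arrays. SS_UG names accounted for 4 salt-only and 0 control-only probes, beside 5.39% of all probes. Names ending in AS, for antisense, belonged to 2 salt-only probes and no control-only probe, beside 0.557% of all probes. With sets this small no class is called particular to either.

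Both antisense-named members have a partner probe under the same number without that ending. CUST_3498 (5435476_AS) read -1.53, -2.63, -2.41 and -2.35 in the 4 salt eggs, against -3.35, -4.85, -5.72 and -4.60 in the 4 controls, at least 3.96-fold higher in salt eggs. CUST_24362 (5657879_AS) read -1.36, -3.21, -3.45 and -2.46 in the 4 salt eggs, against -3.80, -4.65, -4.80 and -5.66 in the 4 controls, at least 3.15-fold higher in salt eggs. The partners, CUST_3497 and CUST_24361, were well above background in none of the 8 eggs. In both pairs the mark was thus set for the antisense-named probe alone. The weaker mark was not read for the partners.

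Most members were measured by 1 spot, which leaves no repeat within an array. Of the 5 salt-only probes with 2 spots, CUST_24418, CUST_16733, CUST_16788 and CUST_19034 had all 8 spots of the salt arrays well above background, and CUST_29011 had 7 of 8. Of the 3 control-only probes with 2 spots, CUST_35485 had 7 of 8 spots of the control arrays well above background, and CUST_47335 and CUST_29138 had 5 of 8. With the demand that every spot carry the mark, 58 of the 59 salt-only probes and 34 of the 37 control-only probes stayed in their sets. In 4 equal bands of the array's rows lay 16, 20, 10 and 13 salt-only probes and 6, 10, 6 and 15 control-only probes. A probe with 2 spots was counted midway between them. CUST_5616 and CUST_41232, both control-only, were on neighbouring spots. CUST_30534 and CUST_53862, both salt-only, were 2 spots apart, as were CUST_4361 (control-only) and CUST_3515 (salt-only).

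The sets changed when the limit was set otherwise. When the mark was replaced by 1 common floor on the scaled signal, at a level of -2.96, 93 probes were salt-only and 62 control-only. These held 20 of the 59 salt-only members, among them 10 of the 12 with the largest bounds, and 2 of the 37 control-only members, CUST_47780 and CUST_51248. The floor was the highest of the arrays' 5th percentiles of detected level, so it raised the limit as well as making it uniform. It lay above the median level of the control-only probes in their detecting eggs, -2.997. Which of these changed the sets was not tested.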

How the data were processed

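The members and lists were chosen with earlier results of these data known. Per the file headers and the submitters' processing notes, the deposited scanner files were made with Agilent Feature Extraction 10.7 from 62976 spots per array. The intensity in these deposited files was background-subtracted by that software, per the file headers, and not scaled between arrays, and a spot that is not positive and significant holds a stand-in value. The authors' deposited table of log2 values, whose scaling and centring are not given in the sources used here, served as an alternative. Other marks, such as well above background, were read from the deposited files.

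Control spots and 198 outlier-flagged spots (over 8 arrays) were left out of the levels, though not of the marks. No spot of a member was lost. No probe spot was saturated. Spots of a probe were averaged, log2 taken and the 75th percentile of the array subtracted. Differences are salt minus control. limma 3.58.1 in R 4.3.3 (lmFit, eBayes, two-sided, Benjamini-Hochberg, threshold 0.05) was fitted on 30942 probes, those that all 4 eggs of one group or the other had well above background. It was tested on simulated data. The lowest detected signal of an array is no sharp limit, so bounds are approximate and not strict. The number of arrays limits the precision. The normexp alternative used median signals, since mean signals were not in the files. Named probes are the 12 largest and 3 smallest bounds of each set and 3 probes just outside each. Other alternatives were scaling, filters, slide, replicate number and leaving out eggs.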

Additional observations from a re-analysis of the deposited data

Results flagged for a closer look

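In 46 sets of 4 eggs (5 measures per array in each group, and the level of each probe named by the rule in its detecting group), Dixon's test found 2 with an egg far from the other 3, where chance gives about 1 in 20. Salt egg 3 had a median level of -4.12 over the control-only probes, while salt eggs 1, 5 and 6 spanned -4.33 to -4.31. Control egg 3 had a level of -2.88 for CUST_51248, while control eggs 2, 4 and 5 spanned -2.26 to -2.22.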

How the results depend on the processing

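The set sizes, 59 salt-only and 37 control-only, were 93 and 62 with the common floor, 150 and 1040 within slide 1, 1376 and 126 within slide 2, 104 and 269 without control eggs 4 and 5, and 214 and 148 when 1 array of the other group was allowed. Fewer arrays or a looser rule enlarge a set by construction. Leaving out each egg gave 59 to 242 and 43 to 110. The other 3 ways of marking probes kept both sizes within 1.5 times, though the sets chosen by the weaker mark held 0 of the members. With normexp, whose offset of 50 narrows dim differences, the median difference was 0.23 (salt-only, against 1.93) and -0.27 (control-only, against -1.42), and the median bound 1.16-fold and 1.21-fold. Under the other scalings, the authors' table, single slides and left-out eggs these medians moved by less than the spread between eggs. Of 576 values of the 36 named probes, 527 moved by less than that spread and 48 by more, and CUST_6502 turned to -0.0179 with normexp. Over all 59 salt-only probes, 2 turned with normexp, the other being CUST_25552 at -0.0257.

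In limma, probes past the threshold for salt against control (285, with 28 salt-only and 11 control-only members) numbered 108 (1 and 0) with normexp, 167 (18 and 3) with no filter, 249 (28 and 5) with trended, robust variance, and 1 to 460 (1 to 42 and 0 to 15) with each egg left out. The fewest, 1, came without salt egg 6. Fitted with a block for the replicate number, it called 0 (0 and 0), and 2547 at an unadjusted p under 0.05. Salt and control eggs share no numbers but 3 and 5, whose deviations correlated at 0.223 and -0.106. The block fit compares the groups within these numbers alone, so it had little power and nothing is read from its 0. For slide, limma found 128 with normexp, against 21. The causes were not tested. Signal over background limits all members, since none was well above background in the other group.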

Other observations

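The 4 control-only probes with the largest bounds (CUST_32380, CUST_23802, CUST_51546 and CUST_17446) and the 3 probes just outside that set (CUST_33228, CUST_51217 and CUST_31155) all had their highest control level in egg 2 and their lowest in egg 4. This was noticed after the values were seen. The next probe by bound, CUST_35045, was highest in control egg 3 (-1.13). Over the 12 control-only probes with the largest bounds, control egg 2 was the highest for 8. Control egg 4 was the lowest for 6 of these and control egg 3 for 6. Among 1461 probes of like level to the whole set, control egg 2 was the highest for 37.0% and control egg 4 the lowest for 43.7%. In the probes just outside, control egg 2 read 0.51, 0.50 and 0.29, and control egg 4 -2.94, -3.04 and -2.90.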
